A study of Mus musculus with 8 samples.

Results

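Glycolysis and gluconeogenesis genes were examined in 8 libraries of mouse liver, as 33 genes chosen by name, out of 53816 gene IDs in the deposited tables. All 33 were found, under 34 IDs, and all 33 passed a filter of a mean of at least 1 TPM (a level scaled to the total of each library and corrected for transcript length), as did 13055 genes in all. The second ID named Aldoa was listed at 0 to 0.536 TPM, and the other ID (chromosome 7, 126795234 to 126800751, mm10) stands for this gene here. Every mouse had undergone bile duct ligation, which blocks bile flow and injures the liver. The 4 controls were wild type (WT), and the 4 others carry the genotype label LSEC Myc overexpression, that is, Myc overexpressed in the endothelial cells lining the liver sinusoids. The promoter or Cre line behind the overexpression, the sex, age and feeding state of the animals, and the time after surgery are not stated in any label used here. The RNA came from whole liver tissue, not from sorted endothelial cells. Fewer cells of a type and less RNA per cell therefore cannot be told apart. Means are given ± SD with n = 4 libraries per group. No label says in so many words that each library is a separate animal. Controls and Myc-labelled mice with a number therefore stand for libraries below. The p-values measure only the spread between these libraries, which may be technical.

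Glycolysis splits glucose into pyruvate, and lactate dehydrogenase turns pyruvate into lactate. The hepatocyte also runs the path backwards, and makes glucose from lactate and amino acids during fasting, through a few enzymes that bypass the irreversible steps. Several steps have a liver isoform and another that prevails in proliferating, stromal or immune cells, and Myc is known to raise transcription of many glycolytic genes in dividing cells. The comparison asks whether these genes, and the balance between liver isoforms and those others, differ with the Myc label.

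Myc mRNA itself did not follow the labels. It stood at 272, 207, 554 and 89.2 TPM in controls 1 to 4 and at 339, 356, 25.6 and 249 TPM in Myc-labelled mice 1 to 4. The groups overlap, and the lowest of the 8 values lies in a Myc-labelled library (exact permutation p = 0.714, two-sided). Each direction given here rests on the labels. Aligned bases, estimated from the ratio of coverage to FPKM, were 5.29 to 6.74 Gb per library, and mitochondrially encoded genes took 7.73 to 11.2% of TPM. Xist, the transcript of the inactive X chromosome of females, stood at 32.8 to 43.3 TPM in 5 libraries and at 0.0454 to 0.0574 TPM in control 3 and Myc-labelled 3 and 4. All 8 hepatocyte markers were found and their summed level was 63617 to 123667 TPM in control livers and 64665 to 100864 TPM in the Myc-labelled mice. The 7 sinusoidal endothelial markers summed to 138 to 198 TPM in control livers and 105 to 191 TPM in the Myc-labelled mice. Of the markers in 12 cell type lists, the muscle gene Ckm alone was at 0 in all 8 libraries.

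Promoter windows from RefSeq (GRCm38.p6, 250 bases before to 50 after a transcription start) were available for all 33 genes, in 52 windows. The palindrome CACGTG, the E-box that Myc and Max bind, was searched as written, which covers both strands. It occurred in 6 of the 52 windows (11.5%), 1 window each for Ldha, Slc16a1, Pfkfb3, Pfkm, Pdk2 and Pcx, and in 7.15% of all 32851 windows. The windows of Slc16a1, a lactate carrier with the smallest p among the members, and of Ldha, the member with 2 matches in 1 window, are shown with the motif in capitals. Their coordinates are chr3:104638414-104638713 and chr7:46845554-46845853, both on the plus strand. In Slc16a1 the motif begins 200 bases before the start, and in Ldha 145 and 48 bases before it.
Slc16a1: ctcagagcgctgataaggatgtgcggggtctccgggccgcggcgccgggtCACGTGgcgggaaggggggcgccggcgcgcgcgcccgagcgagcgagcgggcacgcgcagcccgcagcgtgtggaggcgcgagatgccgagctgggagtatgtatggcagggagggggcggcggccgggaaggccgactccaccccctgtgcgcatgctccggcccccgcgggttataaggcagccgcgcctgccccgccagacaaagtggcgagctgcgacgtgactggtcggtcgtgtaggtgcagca
Ldha: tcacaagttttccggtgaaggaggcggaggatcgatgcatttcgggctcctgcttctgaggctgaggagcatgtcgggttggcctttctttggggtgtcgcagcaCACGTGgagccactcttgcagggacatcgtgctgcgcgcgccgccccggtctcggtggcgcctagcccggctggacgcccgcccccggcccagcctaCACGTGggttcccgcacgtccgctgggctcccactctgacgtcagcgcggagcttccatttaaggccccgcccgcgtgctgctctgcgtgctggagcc
A match describes these letters and is not evidence of binding.

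The windows of the glucose transporter pair, whose ratio differed most between libraries, are shown with every CG dinucleotide in capitals. The Slc2a1 window (chr4:119108495-119108794, plus strand) holds 18 CG dinucleotides and the Slc2a2 window (chr3:28697653-28697952, plus strand) 2.
Slc2a1: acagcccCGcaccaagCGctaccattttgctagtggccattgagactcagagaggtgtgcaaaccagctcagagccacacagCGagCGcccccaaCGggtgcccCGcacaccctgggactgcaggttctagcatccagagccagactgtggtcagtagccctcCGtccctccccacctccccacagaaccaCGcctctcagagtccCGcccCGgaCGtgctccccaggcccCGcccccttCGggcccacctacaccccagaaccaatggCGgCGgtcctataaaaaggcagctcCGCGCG
Slc2a2: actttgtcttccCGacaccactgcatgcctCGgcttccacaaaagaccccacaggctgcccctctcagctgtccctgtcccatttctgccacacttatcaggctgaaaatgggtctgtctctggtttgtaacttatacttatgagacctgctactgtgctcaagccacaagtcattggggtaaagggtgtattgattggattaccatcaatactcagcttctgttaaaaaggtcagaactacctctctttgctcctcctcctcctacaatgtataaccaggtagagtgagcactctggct
Among other genes typical of the liver the count was 4 in G6pc, 6 in Pck1, 6 in Fbp1, 8 in Gckr, 3 and 8 in the 2 windows of Pklr, 20 in Pfkl and 1 to 20 in the 4 windows of Pfkfb1. Among isoforms of other tissues it was 23 and 27 in Pkm, 21 in Pfkp, 36 in Slc16a3, 3 and 8 in Aldoc, 3 in Eno3 and 7 in Hk3. Few and many CG dinucleotides thus occurred on both sides. The median was 13.5 over the member windows and 7 over all windows.

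None of the 33 genes differed between the groups at an adjusted p of 0.05. In limma with Benjamini-Hochberg adjustment over 13055 genes, 0% of all genes were called higher and 0% lower. Without adjustment, 2 members, Slc16a1 and Slc2a1, had a p under 0.05 and both were higher in the Myc-labelled mice, against 165 of all genes higher (1.26%) and 78 lower (0.597%). With array weights limma called 1 gene lower, which was no member. Of the 33 log2 differences (Myc-labelled minus control, on log2(TPM + 1), which understates changes of low genes), 18 were above 0 and 15 below. Their median was 0.0011, and that of all tested genes 0.04. Without Myc-labelled 3 the split was 26 and 7 (median 0.19, all genes 0.11), and without Myc-labelled 1 it was 12 and 21 (median -0.11, all genes -0.04). No member had groups that did not overlap, where 0.935% of all genes had every Myc-labelled value above the controls and 0.322% every value below.

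**Figure D1:**
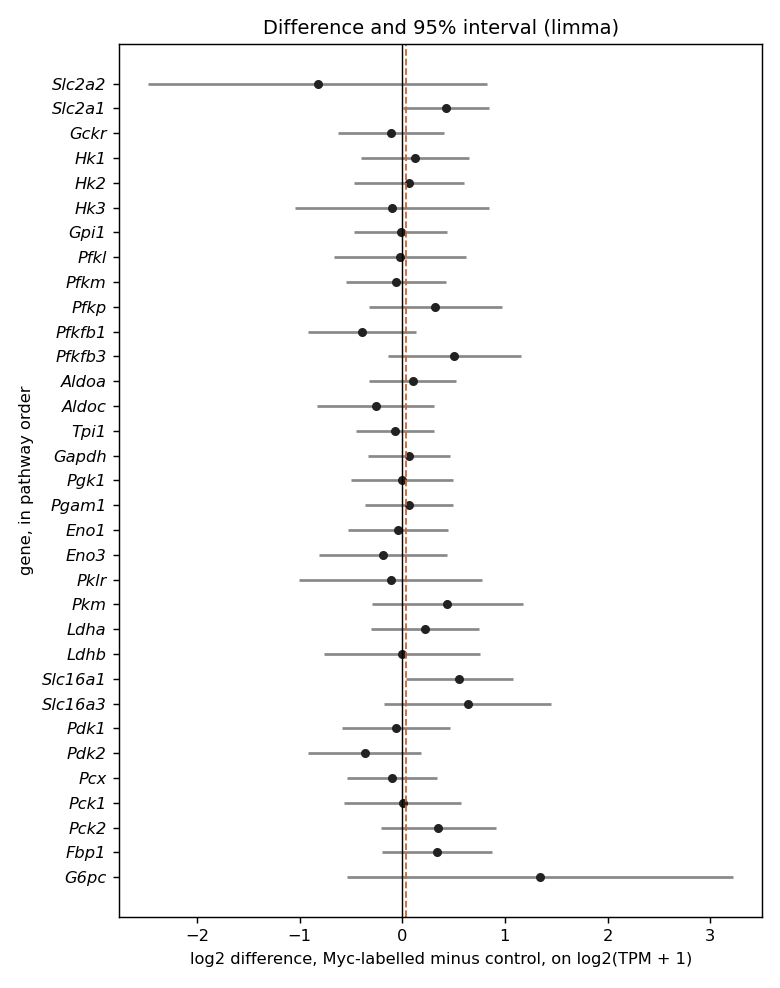
Log2 difference of each of the 33 genes, Myc-labelled minus control on log2(TPM + 1), as points with 95% intervals from limma (bars); the solid line is 0 and the dashed line the median of all tested genes, 0.04. The intervals of Slc16a1 and Slc2a1 alone lie on 1 side of 0, and neither gene passed after adjustment.

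The intervals say how much these 8 libraries could show. For 25 of the 33 genes the 95% interval lay wholly within 1 unit of log2(TPM + 1) to either side of 0, and for the other 8 it reached that size or more. For genes near 1 TPM such a unit is more than a doubling of TPM, and with a pseudocount of 0.1 the count was 21 of 33. The width to either side ranged from 0.38 for Tpi1 to 1.88 for G6pc.

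Myc-labelled 1 had the highest of the 8 values for 18 of the 33 members (54.5%), and for 35.8% of all tested genes. Myc-labelled 3 had the lowest for 17 members (51.5%), and for 35.5% of all tested genes. After median-of-ratios scaling, whose factors were 1.22 for Myc-labelled 1 and 0.85 for Myc-labelled 3, these counts were 5 highest and 11 lowest members, and the shares of all tested genes 9.64% and 18.2%.

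**Figure D2:**
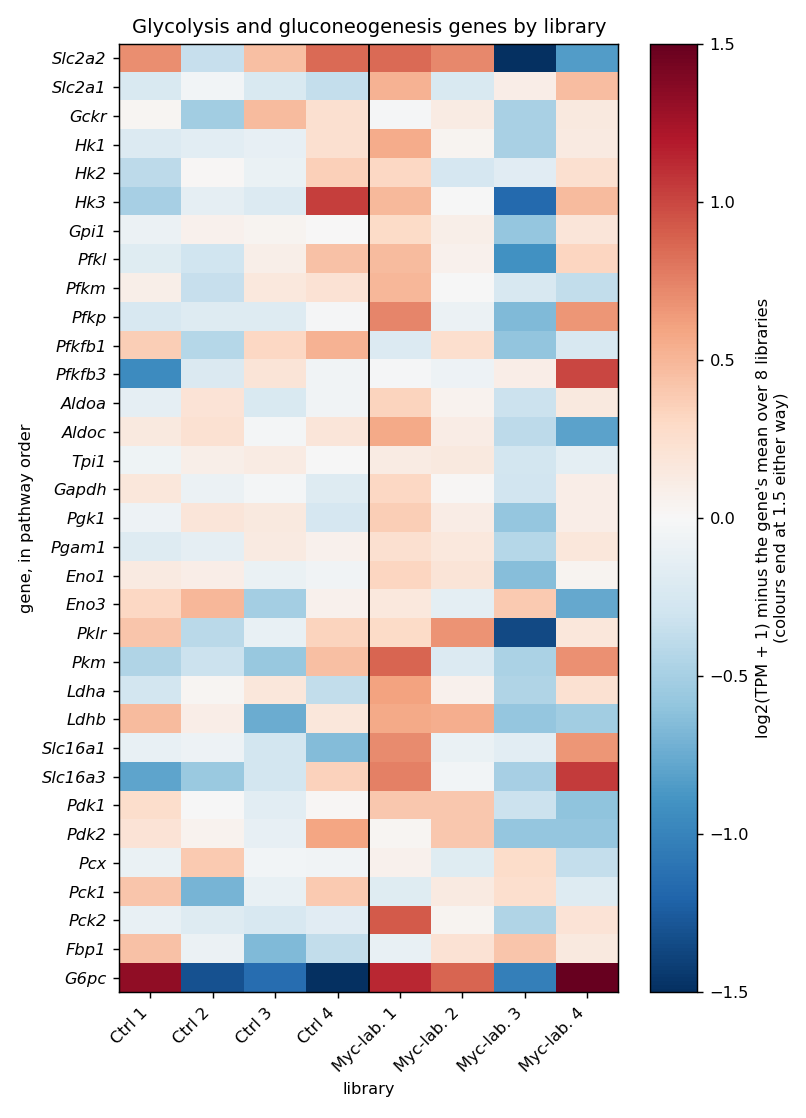
Level of each of the 33 genes (rows, in pathway order) in each of the 8 libraries (columns, controls left of the line), as log2(TPM + 1) minus the gene's mean over the 8; red is above that mean and blue below, with colours ending at 1.5 either way. Myc-labelled 1 is mostly red and Myc-labelled 3 mostly blue, while G6pc has the strongest colours of both kinds.

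Glucose enters and leaves the hepatocyte through Slc2a2 (GLUT2, chromosome 3, 28697903 to 28731359), a carrier of low affinity and high capacity. It stood at 112, 54, 94.1 and 124 TPM in controls 1 to 4 and at 125, 114, 12.4 and 38 TPM in Myc-labelled mice 1 to 4. Myc-labelled 1 stood level with the highest control and Myc-labelled 2 within the control range, while Myc-labelled 3 and 4 lay below every control. The log2 difference was -0.82 ± 0.71 (SE), with an interval of -2.47 to 0.82 (limma adjusted p = 1.0). It was -0.17 without Myc-labelled 3 and -1.25 without Myc-labelled 1, and -0.50 with log2 Xist as a covariate. The summed hepatocyte markers, most of which is Alb, stood at 82008, 63617, 123667 and 92713 TPM in controls 1 to 4 and at 70144, 100864, 69818 and 64665 TPM in the Myc-labelled mice. Control 2 and Myc-labelled 3 and 4 had both the lowest sums and the lowest Slc2a2. Myc-labelled 1, with a sum close to that of Myc-labelled 3, had the highest Slc2a2. The marker Hnf4a was highest in control 2 and Myc-labelled 3, at 410 and 302 TPM. Of these 8 markers, 1 had a higher mean log2 level in the Myc-labelled mice and 7 a lower one. Their part in the Slc2a2 level was not tested.

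Slc2a1 (GLUT1, chromosome 4, 119108711 to 119137983), the carrier of most dividing cells, stood at 13, 14.8, 12.9 and 11.7 TPM in controls 1 to 4. In the Myc-labelled mice it stood at 22.4, 12.9, 16.5 and 21.5 TPM. Myc-labelled 1, 3 and 4 lay above all controls and Myc-labelled 2 within their range. The log2 difference was 0.43 ± 0.19 (SE), with an interval of 0.01 to 0.84 (unadjusted p = 0.0449, limma adjusted p = 1.0). The unadjusted p was above 0.05 without control 1, 3 or 4 or without Myc-labelled 1 or 4, at up to 0.122, at 0.0695 with log2 Xist as a covariate and at 0.0753 with a replicate block. With array weights it was 0.233 and the log2 difference 0.23.

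Slc2a2 held most of the transcripts of the pair in 7 of 8 libraries. Slc2a1 took 8.6 to 21.5% of the pair's TPM in the controls. It took 15.2, 10.2, 57 and 36.2% in Myc-labelled mice 1 to 4. The log2 ratio Slc2a1/Slc2a2, with 1 TPM added to each level as in all 8 ratios, was -2.72 ± 0.65 in the controls and -1.47 ± 1.56 in the Myc-labelled mice, a difference of 1.25 (exact permutation p = 0.229, two-sided, adjusted over 8 ratios p = 0.571). Leaving out 1 library moved it from 0.64, without Myc-labelled 3, to 1.78, without Myc-labelled 2. The SD of the Myc-labelled mice was larger than the difference between the groups.

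**Figure D3:**
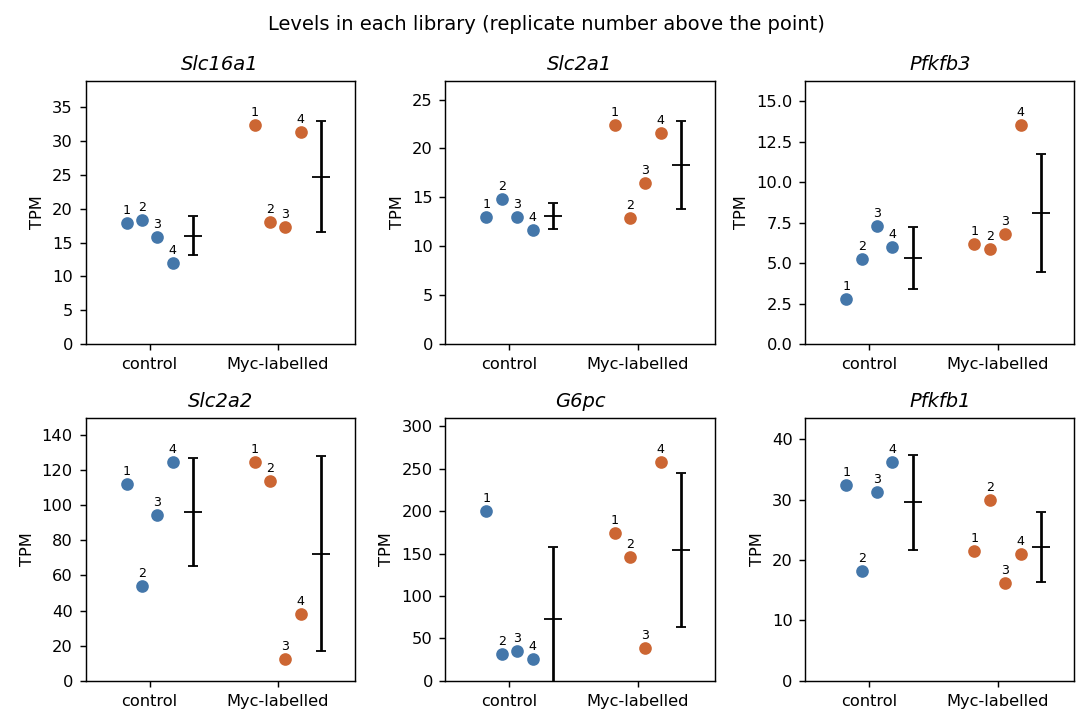
TPM of 6 genes in each library, controls in blue and Myc-labelled mice in orange, with the replicate number above each point and the mean ± SD of 4 libraries in black; the SD of G6pc in the controls reaches below 0 and is drawn to 0. Slc16a1 and Slc2a1 are highest in Myc-labelled 1 and 4, Slc2a2 is lowest in Myc-labelled 3, and G6pc is high in control 1 and in Myc-labelled 1, 2 and 4.

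Gckr encodes the nuclear protein that holds back the liver's own glucose-phosphorylating enzyme. It stood at 80.4 ± 22.1 TPM in control livers and 73.1 ± 13.6 TPM in the Myc-labelled mice. The high-affinity hexokinases of other cells were scarce. Hk1 stood at 2.13 ± 0.463 against 2.5 ± 1 TPM, and Hk2, often named as a Myc target, at 0.96 ± 0.426 against 1.04 ± 0.399 TPM. Hk3, a hexokinase of myeloid cells, stood at 3.91 ± 2.68 against 3.59 ± 1.95 TPM and was the most abundant of the 3 in 7 of 8 libraries. Hk3 was highest in control 4, at 7.9 TPM, and lowest in Myc-labelled 3, at 0.927 TPM. The summed monocyte and macrophage markers, all 6 of which were found, stood at 250 TPM in control 4 and 93.2 TPM in Myc-labelled 3, most of it Lyz2. Their range was 171 to 253 TPM in control livers and 93.2 to 386 TPM in the Myc-labelled mice. The 7 Kupffer cell markers summed to 720 to 1151 TPM in control livers and 439 to 974 TPM in the Myc-labelled mice, again lowest in Myc-labelled 3. The part of these cells in the Hk3 level was not tested.

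Phosphofructokinase commits sugar phosphate to glycolysis. Pfkl, the liver subunit, stood at 13.3, 12.3, 16.2 and 21.1 TPM in controls 1 to 4 and at 21.6, 16, 7.69 and 19.3 TPM in the Myc-labelled mice. Pfkp, the platelet subunit, stood at 2.34, 2.46, 2.46 and 2.93 TPM in control livers and at 5.55, 2.72, 1.51 and 5.29 TPM in the Myc-labelled mice. Both were lowest in Myc-labelled 3, and Pfkp was highest in Myc-labelled 1 and 4. Pfkl made up 54.5 to 67.7% of the transcripts of the 3 subunit genes and led in all 8 libraries. Pfkm, the muscle subunit, held 15.2 to 34.8% and Pfkp 9.4 to 18.3%. The log2 ratio Pfkp/Pfkl was -2.21 ± 0.24 in the controls and -1.87 ± 0.22 in the Myc-labelled mice, a difference of 0.35 (exact permutation p = 0.0857, adjusted over 8 ratios p = 0.571). Pfkp overlaps Pitrm1 on the opposite strand, which had a mean of 13.4 TPM, and no label used here says whether the counting used strand.

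The PFKFB enzymes set the level of fructose 2,6-bisphosphate, which turns phosphofructokinase on and fructose bisphosphatase off. Pfkfb1, the liver form, stood at 32.4, 18.3, 31.2 and 36.3 TPM in controls 1 to 4 and at 21.5, 30, 16.2 and 20.9 TPM in the Myc-labelled mice. Pfkfb3, the inducible form of proliferating and activated cells, stood at 2.78, 5.25, 7.3 and 5.98 TPM in control livers and at 6.18, 5.89, 6.79 and 13.6 TPM in the Myc-labelled mice. Control 2 was the low value among the controls for Pfkfb1, and Myc-labelled 4 was high for Pfkfb3. The log2 differences were -0.39 ± 0.24 (SE) for Pfkfb1 and 0.51 ± 0.30 (SE) for Pfkfb3 (limma adjusted p = 1.0 for both). Pfkfb1 was at -0.60 without control 2 and -0.26 without Myc-labelled 3, and Pfkfb3 at 0.28 without control 1 and 0.26 without Myc-labelled 4. Pfkfb1 held most of the pair's transcripts in all 8 libraries, from 60.7% in Myc-labelled 4 to 92.1% in control 1. The log2 ratio Pfkfb3/Pfkfb1 was -2.28 ± 0.66 against -1.39 ± 0.68, a difference of 0.90 (exact permutation p = 0.143, adjusted over 8 ratios p = 0.571). Pfkfb1 overlaps Apex2 on the opposite strand, at a mean of 4.87 TPM.

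The middle enzymes of the path serve both directions. These 7 genes, Gpi1, Aldoa, Tpi1, Gapdh, Pgk1, Pgam1 and Eno1, were among the steadiest members, with a coefficient of variation over the 8 libraries from 10.003 to 19.2% against a median of 28.8% over the 33 and 23.4% over all tested genes. Their log2 differences lay between -0.07 (Tpi1) and 0.10 (Aldoa), and their intervals between -0.53 and 0.53. The Aldoa difference was 0.00999 without Myc-labelled 1 and 0.23 without Myc-labelled 3. Their summed level was 1671, 1808, 1730.5 and 1611 TPM in controls 1 to 4 and 2053, 1852, 1244 and 1753 TPM in the Myc-labelled mice. All 7 were lowest in Myc-labelled 3, and 6 were highest in Myc-labelled 1. After median-of-ratios scaling 4 of the 7 were lowest in Myc-labelled 3 and 0 highest in Myc-labelled 1. Tpi1 was the most abundant, at 431 ± 24.8 against 412 ± 57.4 TPM, followed by Eno1 at 368 ± 30.3 against 367 ± 95.7 TPM and Pgk1 at 336 ± 47.6 against 343 ± 87.2 TPM. Aldoa stood at 184 ± 24.3 against 199 ± 36.9 TPM, Pgam1 at 146 ± 16.2 against 155 ± 30.2 TPM, Gapdh at 128 ± 13.8 against 136 ± 22.8 TPM and Gpi1 at 111 ± 5.13 against 113 ± 27.4 TPM. Eno1 has a near-identical copy, Eno1b, listed at 13.4 to 26.5 TPM, so its level is uncertain to that extent. Tpi1 overlaps Spsb2 (mean 14.4 TPM) and Gapdh overlaps Iffo1 (mean 8.73 TPM), both on the opposite strand.

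Minor isoforms of 2 of these steps stayed minor. Aldoc, the aldolase of brain, held 3.3 to 7.8% of the transcripts of Aldoa and Aldoc, and Eno3, the muscle enolase, 0.9 to 3.5% of those of Eno1 and Eno3. Aldoc stood at 14.5 ± 1.2 against 12.8 ± 5.67 TPM and Eno3 at 6.95 ± 2.21 against 6.06 ± 2.23 TPM.

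Pyruvate kinase makes pyruvate and ATP in the last step. Pklr (chromosome 3, 89136142 to 89146784), the liver and red cell gene, stood at 30.8, 17.1, 21.1 and 29 TPM in controls 1 to 4 and at 28.1, 37.1, 8.36 and 25.9 TPM in the Myc-labelled mice. Pkm (chromosome 9, 59656368 to 59679375), which encodes the M1 and M2 forms of other tissues, stood at 26.9, 29.4, 24.7 and 50.8 TPM in control livers and at 68.8, 31.8, 26.3 and 60.1 TPM in the Myc-labelled mice. Pkm was high in Myc-labelled 1 and 4 and in control 4, and Pklr lowest in Myc-labelled 3. The tables give 1 value per gene, so the M1 and M2 forms were not told apart, and Pkm overlaps Gm49759 on the same strand, at a mean of 1.85 TPM. Pkm exceeded Pklr in 6 of 8 libraries, and the exceptions were control 1 and Myc-labelled 2. Its share of the pair ran from 46.6 to 63.7% in the controls and from 46.2 to 75.9% in the Myc-labelled mice. The log2 ratio Pkm/Pklr was 0.39 ± 0.47 against 0.94 ± 0.79, a difference of 0.55 (exact permutation p = 0.286, adjusted over 8 ratios p = 0.571). It was 0.94 without Myc-labelled 2, 0.36 without control 1 and 0.35 without Myc-labelled 3.

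**Figure D4:**
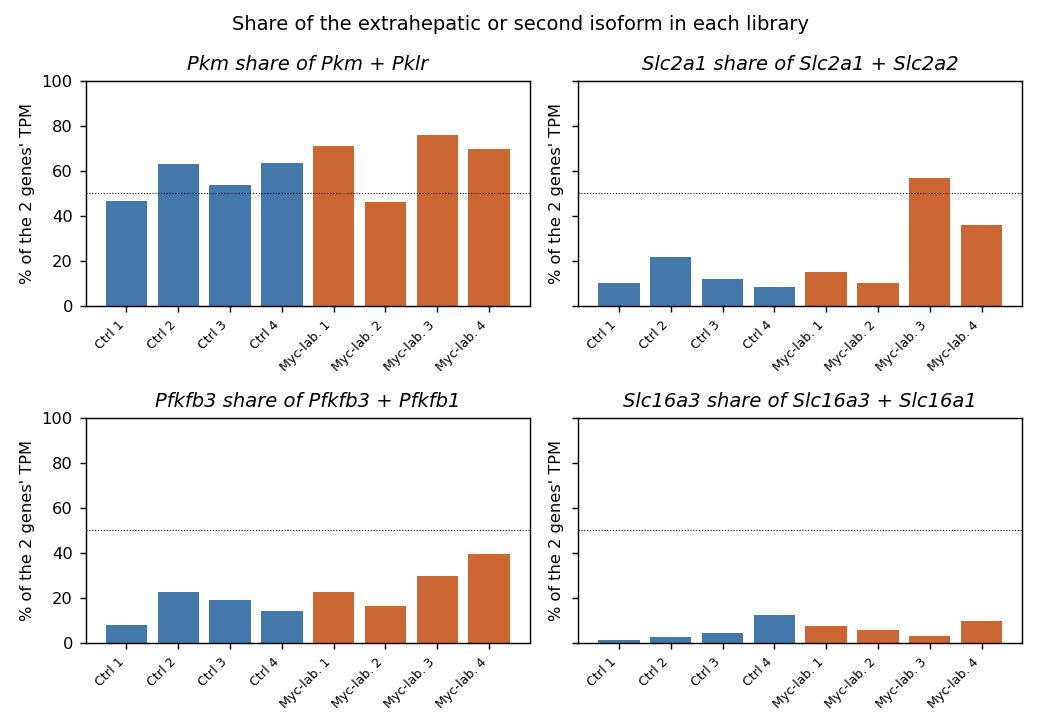
Share of 1 gene in the summed TPM of a pair, in percent, for each library (bars, controls in blue and Myc-labelled mice in orange); the dotted line marks 50%. Pkm passes 50% in 6 libraries and Slc2a1 in Myc-labelled 3 alone, while Pfkfb3 and Slc16a3 stay below 50% in all 8.

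Lactate dehydrogenase and the monocarboxylate carriers exchange pyruvate and lactate with the blood. Ldha, the main liver subunit and a gene known as a Myc target, stood at 608, 754, 827 and 569 TPM in controls 1 to 4 and at 1115, 772, 537 and 862 TPM in the Myc-labelled mice. Ldhb, the subunit of heart, stood at 4.8, 3.48, 1.49 and 3.72 TPM in control livers and at 5.19, 5.08, 1.8 and 1.9 TPM in the Myc-labelled mice. Ldha was highest in Myc-labelled 1 and lowest in Myc-labelled 3, and made up 99.2 to 99.8% of the pair. The log2 difference of Ldha was 0.22 ± 0.24 (SE). It was 0.058 without Myc-labelled 1, 0.41 without Myc-labelled 3 and 0.13 without control 4. The log2 ratio Ldha/Ldhb differed by 0.22 (exact permutation p = 0.571, adjusted over 8 ratios p = 0.762), and leaving out 1 library moved this from 0.0048 (Myc-labelled 4) to 0.56 (control 3), with 0.0072 without control 1, 0.075 without control 4 and 0.41 without Myc-labelled 2.

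Slc16a1 (MCT1, chromosome 3, 104638668 to 104658462) carries lactate and pyruvate in either direction. It stood at 17.8, 18.4, 15.8 and 12 TPM in controls 1 to 4 and at 32.4, 18.1, 17.2 and 31.3 TPM in Myc-labelled mice 1 to 4. Myc-labelled 1 and 4 were above all controls, and Myc-labelled 2 and 3 within the control range. The mean was 16 ± 2.89 TPM in control livers and 24.8 ± 8.22 TPM in the Myc-labelled mice. The log2 difference was 0.56 ± 0.24 (SE), with an interval of 0.04 to 1.08 (unadjusted p = 0.0379, limma adjusted p = 1.0). The unadjusted p was 0.119 without Myc-labelled 1, 0.110 without Myc-labelled 4, 0.111 without control 4 and 0.065 without control 3. It was 0.0576 with array weights, 0.0512 with log2 Xist as a covariate and 0.0505 with no filter. With other pseudocounts, other scalings, FPKM or a replicate block it stayed under 0.05.

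Slc16a3 (MCT4), a lactate exporter of strongly glycolytic cells, stood at 0.213, 0.434, 0.736 and 1.68 TPM in controls 1 to 4 and at 2.56, 1.05, 0.486 and 3.37 TPM in the Myc-labelled mice. It was the most variable member, and again Myc-labelled 1 and 4 were highest. The log2 difference was 0.64 ± 0.37 (SE) and depended on the pseudocount, at 1.16 with 0.1 and 0.24 with 5 (limma adjusted p = 1.0). It was 0.39 without Myc-labelled 4. The log2 ratio Slc16a3/Slc16a1 was -3.32 ± 0.75 against -3.24 ± 0.30, a difference of 0.08 (exact permutation p = 0.857, adjusted over 8 ratios p = 0.980) that was -0.23 with a pseudocount of 5, -0.13 without control 1 and 0.43 without control 4.

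Myc-labelled 1 and 4 had the highest Slc2a1, Slc16a1, Slc16a3, Pfkp and Pkm of the 8 libraries, and also the highest Ldha, Gpi1, Pgam1 and Pck2. Of all tested genes, 35.8% were highest in Myc-labelled 1 and 14.4% in Myc-labelled 4. After median-of-ratios scaling this order no longer held for Slc2a1, Gpi1 and Pgam1. Scaled Slc2a1 was 19.4 in Myc-labelled 3 and 18.4 in Myc-labelled 1. Of the markers of other cells, 7 of 7 for stellate cells were highest in Myc-labelled 1, and 6 of 7 for neutrophils in Myc-labelled 4. The 6 cholangiocyte markers, all found, summed to 98.1 to 322 TPM in control livers and to 441, 279, 118 and 970.1 TPM in Myc-labelled mice 1 to 4. Most of that sum was Spp1, at 401 TPM in Myc-labelled 1 and 939 TPM in Myc-labelled 4. The keratins of bile duct cells were not high in Myc-labelled 4, with Krt19 at 6.81 TPM and Krt7 at 1.80 TPM, each below controls 1, 3 and 4. Both were highest in Myc-labelled 1, at 14.1 and 3.88 TPM, and Epcam and Prom1 were highest in Myc-labelled 2. The 7 neutrophil markers summed to 11.5 to 62.8 TPM in control livers and to 66.6, 43.1, 23.9 and 146 TPM in the Myc-labelled mice. The 7 stellate and myofibroblast markers summed to 24.1 to 115 TPM in control livers and to 257, 103, 33.5 and 75 TPM in the Myc-labelled mice. Tested markers with a higher mean log2 level in the Myc-labelled mice were 6 of 6 for cholangiocytes, 6 of 6 for neutrophils and 7 of 7 for stellate cells. They were 5 of 5 for erythroid cells and 3 of 6 for monocytes and macrophages. For sinusoidal endothelial cells they were 1 of 7, for endothelial cells in general 0 of 6 and for Kupffer cells 0 of 7. Muscle had 0 of 1 and proliferation 0 of 2. Of all tested genes, 58.0% had a log2 difference above 0. The part of these cells in the levels of the genes named above was not tested.

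Pyruvate dehydrogenase kinases switch off the entry of pyruvate into the citric acid cycle. Pdk2 stood at 63 ± 14.1 against 50 ± 17.5 TPM, and Pdk1, the kinase induced by hypoxia, at 12.1 ± 1.64 against 12.1 ± 4.44 TPM. Pdk2 held 77.7 to 87.4% of the pair in all 8 libraries. The log2 difference of Pdk2 was -0.36 ± 0.25 (SE), with an interval of -0.91 to 0.19. It was -0.56 without Myc-labelled 2 and -0.23 without control 4, Myc-labelled 3 or Myc-labelled 4.

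Gluconeogenesis starts with pyruvate carboxylase, Pcx, at 282 ± 48.8 against 264 ± 50.9 TPM. Pck1 (chromosome 2, 173153048 to 173159273), the cytosolic PEP carboxykinase induced by fasting, was the most abundant of the 33 genes. It stood at 3236, 1503, 2246 and 3193 TPM in controls 1 to 4 and at 2144, 2684, 2893 and 2125 TPM in the Myc-labelled mice. All Myc-labelled values lay within the control range, and the log2 difference was 0.01 ± 0.26 (SE), with an interval of -0.57 to 0.58. The mitochondrial form Pck2 stood at 4.06 ± 0.191 against 5.85 ± 2.8 TPM and held 0.1 to 0.5% of the pair. Fbp1, which opposes phosphofructokinase, stood at 823, 573, 385 and 471 TPM in control livers and at 564, 706, 814 and 675 TPM in the Myc-labelled mice. The groups overlap, and control 1 was the highest of the 8.

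G6pc (chromosome 11, 101367561 to 101377903), the glucose 6-phosphatase that releases free glucose, varied most among the abundant members. It stood at 200.04, 31.3, 35.1 and 26.2 TPM in controls 1 to 4 and at 175, 146, 38.3 and 259 TPM in Myc-labelled mice 1 to 4. No library lay between 38.3 and 146 TPM, and each group has libraries on both sides of that gap. The log2 difference was 1.34 ± 0.81 (SE), with an interval of -0.54 to 3.22 (limma adjusted p = 1.0). It was 2.01 without control 1 and 1.91 without Myc-labelled 3. Pck1, another gene of the fasting response, shared this order in part. Control 1 had the highest Pck1, while control 4 had the lowest G6pc and the second highest Pck1. The part of feeding state in these levels was not tested. Slc37a4, which brings glucose 6-phosphate to this enzyme, stood at 328, 277, 161 and 267 TPM in controls 1 to 4. In the Myc-labelled mice Slc37a4 stood at 183, 262, 157 and 89.8 TPM. Slc37a4 was lowest in the library with the highest G6pc, and highest in control 1, which had the second highest G6pc. Its log2 difference was -0.63 ± 0.32 (SE, limma adjusted p = 1.0).

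Setting glycolytic against gluconeogenic enzymes gave no difference past the threshold. The log2 ratio Pfkl/Fbp1 was -5.05 ± 0.71 in the controls and -5.41 ± 0.82 in the Myc-labelled mice, a difference of -0.36 (exact permutation p = 0.543, adjusted over 8 ratios p = 0.762). Leaving out 1 library moved it from -0.63 (control 1) to 0.021 (Myc-labelled 3). The log2 ratio Pklr/Pck1 was -6.61 ± 0.16 against -6.73 ± 1.03, a difference of -0.12 (exact permutation p = 1.0, adjusted over 8 ratios p = 1.0) that was 0.40 without Myc-labelled 3. Myc-labelled 3 had the lowest value of both ratios, at -8.27 for Pklr/Pck1, where the other 7 libraries lay between -6.73 and -6.14. Of the 4 ratios of another isoform over the liver isoform, all 4 had a higher mean in the Myc-labelled mice, and 0 passed. The smallest p these 70 assignments allow is 0.0286. After adjustment over 8 ratios, these 4 could not have passed by themselves even at that p. That 0 passed therefore says little about them.

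Since Myc mRNA varied within both groups, the 8 ratios were also set against its level over the 8 libraries. The ratios of another isoform over the liver isoform did not run higher where Myc was higher. Pearson's r was -0.59 for Pkm/Pklr (exact permutation p = 0.118, Spearman's rho = -0.60, exact p = 0.132). It was -0.62 for Slc2a1/Slc2a2 (exact permutation p = 0.0934, rho = -0.36, exact p = 0.389), -0.16 for Pfkp/Pfkl (exact p = 0.715, rho = -0.19, exact p = 0.665) and -0.24 for Pfkfb3/Pfkfb1 (exact p = 0.550, rho = -0.31, exact p = 0.462). None of the 8 passed after adjustment, with adjusted p-values of 0.261 to 0.893 for r and 0.605 to 1.0 for rho (exact permutation over all pairings).

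On the log2 scale used for these correlations, control 4 and Myc-labelled 3 lie farthest from the median Myc level. Pklr/Pck1 had the largest r of the 8, 0.85 (exact permutation p = 0.0326, adjusted over 8 relations p = 0.261, rho = 0.57, exact p = 0.151). Its r was 0.32 without Myc-labelled 3 alone, so the relation rests mostly on that library. Without both of those 2 libraries it was -0.25. The other values without them were -0.31 for Pkm/Pklr, -0.55 for Slc2a1/Slc2a2, -0.65 for Pfkp/Pfkl, -0.20 for Pfkfb3/Pfkfb1, 0.38 for Ldha/Ldhb, 0.32 for Slc16a3/Slc16a1 and 0.66 for Pfkl/Fbp1. With all 8 libraries r was 0.57 for Pfkl/Fbp1 (exact p = 0.133, rho = 0.33, exact p = 0.428), 0.20 for Ldha/Ldhb (exact p = 0.665, rho = 0.19, exact p = 0.665) and -0.05 for Slc16a3/Slc16a1 (exact p = 0.893, rho = 0, exact p = 1.0).

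**Figure D5:**
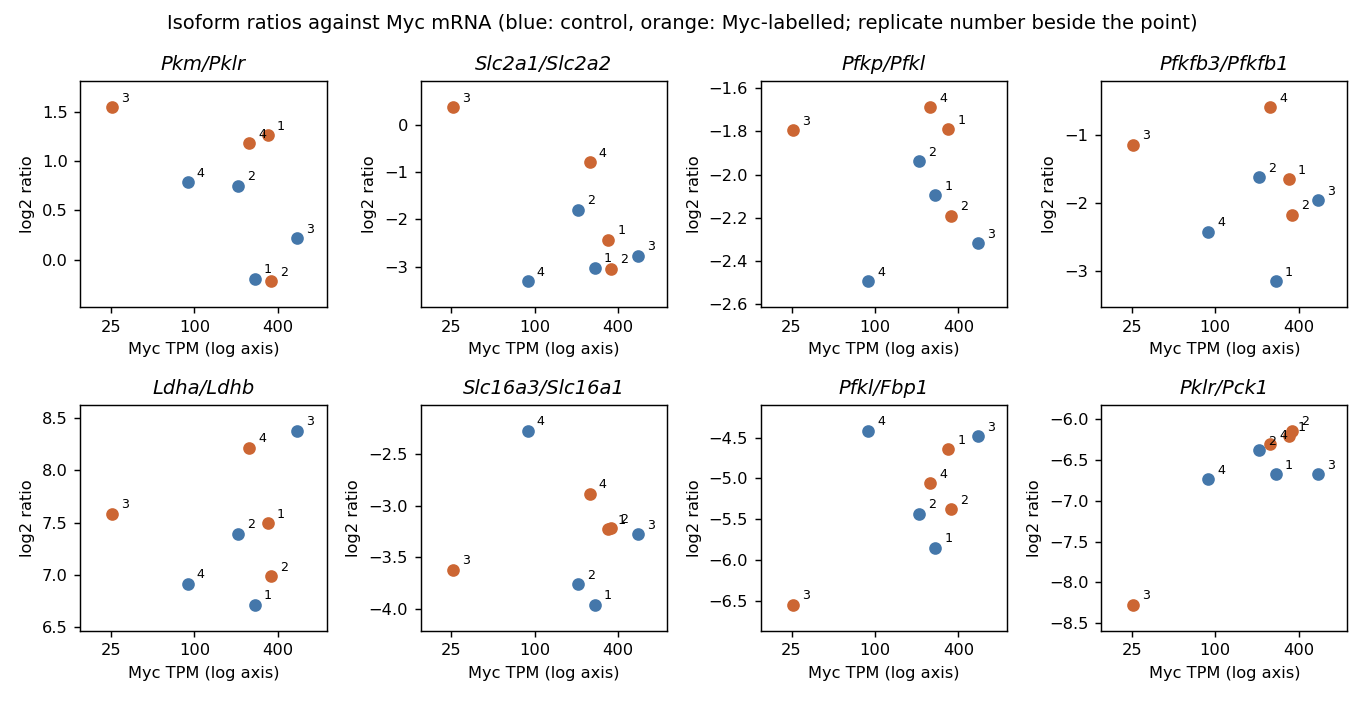
Log2 ratio of 8 pairs of genes (vertical axes) against Myc in TPM (horizontal log axis) in the 8 libraries, controls in blue and Myc-labelled mice in orange, with the replicate number beside each point. Myc-labelled 3, at 25.6 TPM of Myc, has the highest Pkm/Pklr and Slc2a1/Slc2a2 and the lowest Pklr/Pck1 of the 8 libraries.

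The wider pathway was read from 71 further genes of glucose transport, glycogen, pentose phosphate, pyruvate and fructose metabolism and their regulators, of which 66 passed the filter. With limma, 0 of the 66 were called, and 0 had an unadjusted p under 0.05. Their log2 differences were above 0 in 36 and below in 30, with a median of 0.02. After Slc37a4, the smallest p-values belonged to Hif1a, Gpd2 and Pdhx. Hif1a, the hypoxia-induced transcription factor, stood at 14.6 ± 1.58 against 18.7 ± 4.69 TPM. Gpd2, the mitochondrial glycerol phosphate dehydrogenase, stood at 2.81 ± 0.404 against 4.31 ± 1.9 TPM, and Pdhx, a component of the pyruvate dehydrogenase complex, at 12.2 ± 0.417 against 15.4 ± 3.92 TPM. All 3 were highest in Myc-labelled 1.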

How the data were processed

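Mouse liver RNA was sequenced as 8 libraries, 4 per group, made with a kit for mRNA, per the labels' protocols. The submitters' processing notes name HISAT2, StringTie and the mm10 build. Versions, strand setting and annotation release are stated in no label or header used here. TPM and FPKM were deposited by the authors per gene ID, and so was coverage, a signal per base, per the file headers. Rows that repeated a gene ID (10 to 15 per library) were summed. GENCODE M21 held 98.3% of the versioned IDs, at the same coordinates for 100% of these. TPM values share 1 total within a library, so a few abundant genes can shift all others.

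Genes whose mean TPM reached 1 were tested on log2(TPM + 1) with a two-sided test in limma 3.58.1 under R 4.3.3 (options trend and robust), adjusted by Benjamini-Hochberg. It was run on data simulated gene by gene, with 200 changed genes in each of 5 runs. These were drawn from genes above a level floor, which low members such as Hk2 and Slc16a3 do not reach. The simulated libraries lack shifts shared by many genes, as in Myc-labelled 1 and 3. The shares recovered may therefore not hold for the real data. The fit recovered 54.4% of 2-fold and 90.4% of 4-fold changes, with 35 false calls in all. Ratios of log2(TPM + 1) levels and Myc were compared by exact permutation. Python 3.11.15, pandas 2.3.3 and numpy 2.4.6 were used. No label says that equal replicate numbers pair the samples. Their deviations correlated weakly (-0.06 to 0.13), which cannot settle whether they were paired. Between libraries log2 levels correlated at 0.935 to 0.976, and no library was a copy of another. The alternatives were the pseudocount, filter, scaling, FPKM, variance model, array weights, a replicate block, Xist as a covariate and leaving out each library. Leaving out Myc-labelled 1 and 3 together was chosen after seeing the data.

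Named were Myc, then all members by role, with values per library for the genes of the 8 ratios and the 6 with the smallest p, and the 4 further pathway genes with the smallest p. The members and lists were chosen with earlier results of these data known.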

Additional observations from a re-analysis of the deposited data

Results flagged for a closer look

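Among 84 sets of 4 values (33 genes and Myc in TPM and 8 log2 ratios, in each group), 7 had 1 library far from the other 3 by Dixon's test at 95%, which flags about 1 set in 20 by chance. In the controls, G6pc stood at 200.04 TPM in control 1 against 26.2 to 35.1 TPM in the others, and Pcx at 354.6 TPM in control 2 against 251 to 261 TPM. Control 4 had Hk3 at 7.9 TPM against 2.05 to 2.94 TPM and Hk1 at 2.82 TPM against 1.82 to 1.98 TPM. In the Myc-labelled group, Pfkfb3 stood at 13.6 TPM in Myc-labelled 4 against 5.89 to 6.79 TPM. Myc-labelled 3 had Pgam1 at 110.3 TPM against 166 to 177 TPM, and a log2 ratio Pklr/Pck1 of -8.27 against -6.30 to -6.14.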

How the results depend on the processing

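No member passed an adjusted p of 0.05 under any of the 20 alternatives, in 653 values. Of these values 585 kept their direction, and 15 of the 33 genes kept it in every alternative that gave a value. The filters, the variance model and the replicate block leave the log2 difference unchanged. Their values are among the 585 and could not have changed direction. A mean of at least 5 TPM left 26 members. None of 96 ratio values or 88 Myc relation values passed. The ratio values with a replicate block could not pass, because that test has too few assignments. The other ratio values could pass after adjustment only if several ratios were extreme together. With a replicate block 141 genes were higher and 90 lower at an unadjusted p under 0.05, and 0 at an adjusted p, which changed no call. Whether equal numbers pair the samples is not known. The unadjusted split was 165 higher and 78 lower, 166 and 172 with median-of-ratios scaling, 166 and 152 with quantile normalization, 387 higher with array weights, and 429 and 214 with no filter. The higher count was 569 without Myc-labelled 3, 89 without Myc-labelled 1 and 98 without Myc-labelled 4. The lower count was 187 without Myc-labelled 1, 48 without control 4 and 120 without control 1 or 2. Genes lower at an adjusted p numbered 0, and 1 with array weights.

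Differences near 0 changed sign, and the cause was not tested. With array weights the log2 differences were -0.13 for Hk2, 0.052 for Gpi1, 0.012 for Tpi1, 0.13 for Eno1, 0.35 for Pklr and 0.20 for Pdk1, and without a change of sign -0.18 for Pfkfb1, 0.23 for Pfkfb3, 0.39 for Slc16a3, -0.21 for Slc2a2 and -0.061 for Pdk2. Without Myc-labelled 1 and 3 they were 0.076 for Gckr, 0.19 for Hk3, 0.13 for Gpi1, 0.18 for Pfkl, 0.10 for Eno1, 0.37 for Pklr and -0.025 for Pck1. With log2 Xist as a covariate they were 0.017 for Hk3, 0.038 for Gpi1, 0.046 for Pfkl, 0.053 for Eno1, 0.053 for Pklr and 0.085 for Pdk1. Quantile normalization gave -0.00084 for Hk2, 0.014 for Gpi1 and -0.049 for Ldhb, and median-of-ratios scaling -0.0397 for Pgk1, -0.0397 for Ldhb and -0.035 for Pck1. FPKM gave 0.016 for Gpi1, 0.0074 for Pfkl and -0.10 for the ratio Slc16a3/Slc16a1, which was -0.23 with a pseudocount of 5. A pseudocount of 0.1 gave -0.0071 for Ldhb, and r with Myc of 0.042 for Pfkp/Pfkl and 0.046 for Slc16a3/Slc16a1.

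Leaving out each library in turn gave log2 differences of -0.30 to 0.028 for Gckr, -0.039 to 0.31 for Hk1, -0.058 to 0.19 for Hk2, -0.29 to 0.27 for Hk3, -0.11 to 0.18 for Gpi1, -0.19 to 0.27 for Pfkl and -0.24 to 0.055 for Pfkm. They were -0.14 to 0.0043 for Tpi1, -0.023 to 0.18 for Gapdh, -0.12 to 0.19 for Pgk1, -0.0036 to 0.22 for Pgam1, -0.15 to 0.16 for Eno1 and -0.39 to 0.041 for Eno3. They were -0.35 to 0.32 for Pklr, -0.25 to 0.19 for Ldhb, -0.20 to 0.13 for Pdk1, -0.23 to 0.14 for Pck1, -0.21 to 0.016 for Pcx and -0.91 to 0.43 for Myc. Ratio differences were -0.13 to 0.43 for Slc16a3/Slc16a1, -0.63 to 0.021 for Pfkl/Fbp1 and -0.31 to 0.40 for Pklr/Pck1. The r with Myc was -0.85 to 0.080 for Slc2a1/Slc2a2, -0.52 to 0.26 for Pfkp/Pfkl, -0.40 to 0.12 for Pfkfb3/Pfkfb1, -0.10 to 0.49 for Ldha/Ldhb, -0.52 to 0.32 for Slc16a3/Slc16a1 and -0.10 to 0.85 for Pfkl/Fbp1. The depth in reads is unknown from TPM, so counting error at low levels could not be given.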
